A study of Homo sapiens with 6 samples.

Results

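The genes described here are those of mitosis, the kinesin motors and the centromere proteins, measured by RNA sequencing in LoVo and LoVo-HM cells. They were chosen with earlier results of these data known, and are set by symbol. Members are every row of the table whose symbol begins with CENP, or with KIF and a digit or C. To these were added 23 mitotic regulators listed by name. This gave 92 genes of 24580 rows, made up of 43 KIF symbols, 26 CENP symbols and the 23 listed regulators. LoVo is an established human colorectal adenocarcinoma cell line, labelled wildtype in the control group. LoVo-HM is labelled as a highly metastatic subline of it, and how it was derived is not stated in the labels. The labels record no treatment for either group. Each group had 3 libraries, 6 in all, of Trizol-extracted RNA, and nothing in the labels says whether they came from separate cultures, so p-values measure the spread between these libraries, which may be technical.

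Kinesins are motor proteins that use ATP to move along microtubules. A set of them works in the mitotic spindle, where they separate the poles, move chromosomes and build the midzone at which the daughter cells divide, and another set carries vesicles, endosomes and mitochondria between divisions. Centromere proteins mark the place on each chromosome where the kinetochore forms and connect it to spindle microtubules. Genes of the mitotic set are switched on together late in the cell cycle. The control of many of them is known to involve promoter elements called CHR (cell cycle genes homology region) and CCAAT boxes. Such elements bind the MuvB complexes and NF-Y. The messenger RNA of these genes is therefore widely used as a measure of proliferation in colorectal and other tumours.

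Because many of these genes share that form of control, the promoters of 9 members are shown: 3 spindle kinesins, 3 mitotic genes with other functions and 3 transport kinesins. Each run is 110 to 150 bases from the 250 bases before the RefSeq start site (build GRCh38.p14), 5′ to 3′ on the gene's strand, without any base that GENCODE 29 counts as exonic. Capitals mark the letters of the CHR, searched as TTTGAA together with a variant that is searched as TTCGAA, and also those of the CCAAT box. Both strands were searched, so that a CHR on the other strand appears as TTCAAA, whereas a box on the other strand appears as ATTGG. The variant reads the same on both strands.
KIF11 (chr10:92592980-92593129, plus strand): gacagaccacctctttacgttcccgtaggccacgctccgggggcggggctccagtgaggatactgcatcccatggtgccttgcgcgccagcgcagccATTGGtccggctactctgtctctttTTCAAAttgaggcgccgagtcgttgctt
KIF4A (chrX:70289980-70290089, plus strand): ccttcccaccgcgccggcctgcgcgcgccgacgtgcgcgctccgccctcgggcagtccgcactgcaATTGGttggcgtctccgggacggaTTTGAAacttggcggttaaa
KIF20B (chr10:89701440-89701589, plus strand): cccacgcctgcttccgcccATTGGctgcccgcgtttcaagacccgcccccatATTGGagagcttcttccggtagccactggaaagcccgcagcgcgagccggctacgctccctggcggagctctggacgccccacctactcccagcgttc
MKI67 (chr10:128126424-128126573, minus strand): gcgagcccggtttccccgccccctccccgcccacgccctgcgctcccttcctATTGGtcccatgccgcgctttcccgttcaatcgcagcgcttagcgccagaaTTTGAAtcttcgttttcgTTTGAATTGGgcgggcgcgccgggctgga
TOP2A (chr17:40417951-40418100, minus strand): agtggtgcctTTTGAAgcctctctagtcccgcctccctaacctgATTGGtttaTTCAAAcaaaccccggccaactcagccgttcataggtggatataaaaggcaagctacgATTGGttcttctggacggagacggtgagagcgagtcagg
CENPF (chr1:214603045-214603194, plus strand): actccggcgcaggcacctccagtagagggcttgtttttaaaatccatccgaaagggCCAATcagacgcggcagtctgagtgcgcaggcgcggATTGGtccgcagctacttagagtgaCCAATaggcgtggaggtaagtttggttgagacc
KIF5B (chr10:32056432-32056581, minus strand): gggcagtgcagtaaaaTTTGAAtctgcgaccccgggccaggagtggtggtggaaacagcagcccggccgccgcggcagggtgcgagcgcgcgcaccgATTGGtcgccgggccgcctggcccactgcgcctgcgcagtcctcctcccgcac
KIF13A (chr6:17987636-17987785, minus strand): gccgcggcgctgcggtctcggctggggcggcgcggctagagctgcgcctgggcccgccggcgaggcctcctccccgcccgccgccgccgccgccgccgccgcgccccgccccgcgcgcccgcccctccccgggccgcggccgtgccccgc
KIF16B (chr20:16573449-16573598, minus strand): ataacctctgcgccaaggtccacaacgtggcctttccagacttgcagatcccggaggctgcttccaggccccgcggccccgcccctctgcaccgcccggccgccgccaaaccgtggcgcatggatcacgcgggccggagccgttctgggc
In KIF11 and KIF4A a CCAAT box lay 53 and 58 bases before the start, with the CHR letters closer to the start, at 28 and 34 bases. In MKI67 the CHR letters nearest the start and a CCAAT box read on the other strand share a base. KIF20B and CENPF held CCAAT boxes without the CHR letters, and KIF13A and KIF16B held neither. KIF5B held both, with the CHR letters farther from the start, at 140 bases, than the CCAAT box at 59.

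RefSeq promoters matched 72 of the 92 members, and the 250 bases before the start were searched in each. Bases that GENCODE 29 counts as exonic were kept in this search. In some windows, such as those of PLK1, KIF18A and KIFC1, all 250 bases were exonic. Some windows, such as those of KIF5C and NUF2, lie inside the gene as GENCODE 29 sets it. The CHR letters, in either form, were found in 6 of 14 mitotic kinesin promoters and in 8 of 17 promoters of the listed regulators. They were found in 2 of 14 promoters of the CENP network and in 1 of 12 of the transport kinesins, which was KIF5B. Of all 27305 RefSeq promoters, 14.6% held them, and of the 9930 that matched tested genes, 9.34% did. CCAAT was found in 11 of 14 mitotic kinesin promoters, 14 of 17 regulator promoters, 8 of 14 CENP network promoters and 3 of 12 transport kinesin promoters, where 33.0% of all promoters and 34.8% of those of tested genes held it. These counts describe letters in a window and no binding was measured.

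The deposited values are FPKM, fragment counts scaled to transcript length and to the total of mapped fragments. On this scale per length, levels of different genes can be set side by side. Library totals ran from 424624 to 439082 FPKM, and the number of reads is unknown. Of the checks on the cells, all 5 epithelial markers (EPCAM, KRT8, KRT18, KRT19 and CDH1) were at 1 FPKM or more in every library, with summed levels of 2008 to 2063 FPKM in LoVo and 2599 to 2702 in LoVo-HM. The sum is mostly keratin, and the 3 keratins had higher means in LoVo-HM, whereas CDH1 was at 48.0 ± 1.38 and 7.91 ± 0.359 FPKM and EPCAM at 128 ± 1.99 and 51.7 ± 2.60 FPKM in LoVo and LoVo-HM. Of 4 intestinal markers only CDX2 was at 1 FPKM or more in every library, VIL1 was listed at 0 in all 6, LGALS4 was at most 0.245 and KRT20 was listed at 0 in LoVo and at a mean of 2.92 FPKM in LoVo-HM. Of 4 immune markers CD68 was at a mean of 3.44 FPKM in LoVo and 2.55 in LoVo-HM, the others were at most 0.203 in any library, and PTPRC was listed at 0 in all. Of 5 fibroblast markers COL1A1 was at 5.62 and 4.75 FPKM, the others were at most 0.355, and COL1A2 was listed at 0 in all. The 3 endothelial markers were at most 0.109 FPKM, and PECAM1 was listed at 0 in all. The part of these markers in the results below was not tested. With limma, 14487 genes whose mean reached 0.5 FPKM were tested on log2(FPKM + 1), and a change is called where the Benjamini-Hochberg adjusted p over all of them is under 0.05. A positive log2 difference, given ± SE, means higher in LoVo-HM, and the added 1 FPKM makes the changes of weakly expressed genes look smaller than they are. Means are ± SD over n = 3 libraries.

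The comparison of the lines asks how messenger RNA differs between the parent and the metastatic subline. Most of the mitotic machinery was higher in LoVo-HM, by modest amounts, while transport kinesins went both ways. Of the 92 members 82 were tested, of which 51 rose, 6 fell and 25 did not pass. Over all tested genes 21.8% were called higher and 23.1% lower, 44.9% in all. The median log2 difference was 0.43 over 12 mitotic kinesins, 0.31 over 23 mitotic regulators, 0.25 over 17 genes of the CENP network and -0.05 over 15 transport kinesins, beside a median of 0.003 over all tested genes. Only 2 members, KIF26B and CENPV, rose at least 2-fold, and no member fell by that much, where 2.37% of the tested genes rose and 4.18% fell at least 2-fold. In bulk RNA a larger share of cells in mitosis and more of these transcripts per cell cannot be told apart. The 10 members below the limit for testing were KIF2B, KIF6, KIF19, CENPVL1, CENPVL2 and CENPVL3, each listed at 0 in every library, and KIF1A, KIF4B, KIF17 and KIF25, all below 0.7 FPKM throughout.

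**Figure D1:**
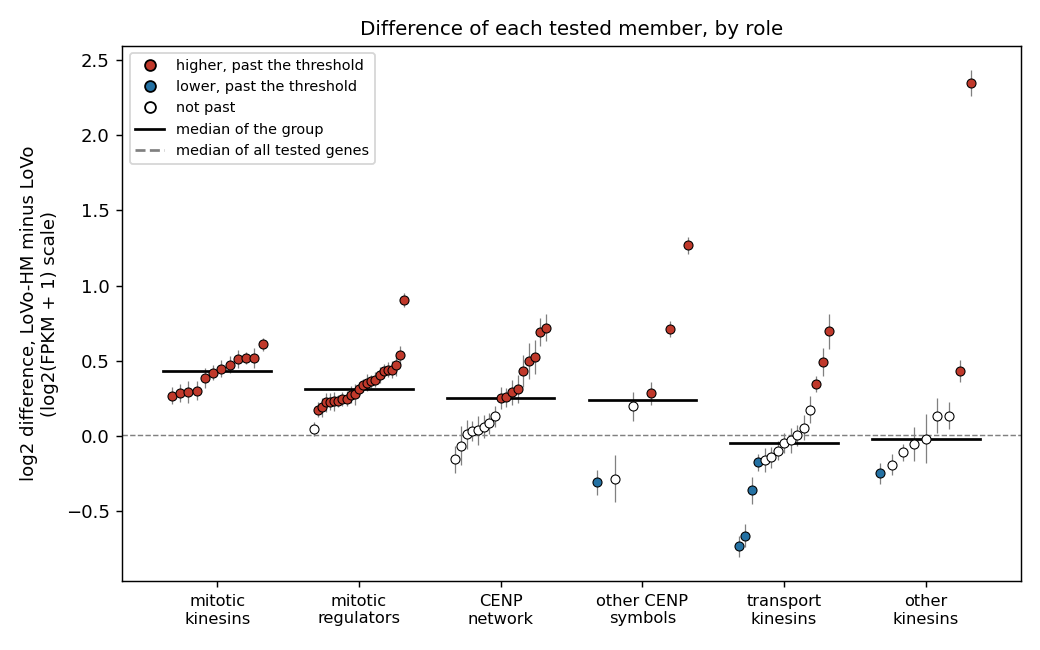
Each point is 1 tested member, placed by its log2 difference (LoVo-HM minus LoVo on the log2(FPKM + 1) scale) with its SE as a bar, grouped by role and ordered by size within a group. All 12 mitotic kinesins and 22 of 23 regulators are red, whereas transport kinesins spread from -0.74 to 0.69 around a median of -0.05.

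All 12 tested kinesins of the mitotic set rose in LoVo-HM, and for each of them the lowest LoVo-HM library stood above the highest LoVo library. The set does not hold every motor with a part in mitosis: CENPE, a kinesin grouped here with the CENP symbols, and KIF2A, grouped with the other kinesins, did not pass the test (log2 differences 0.20 and -0.11). Such a gap between the lines was seen in 55% of all tested genes, with LoVo-HM higher in 27.1% and lower in 27.9%. KIFC1, a minus-end motor that clusters spindle poles (ENSG00000237649, chromosome 6, 33391536 to 33409924, plus strand), had the largest difference of the group. It was at 32.9, 34.4 and 32.5 FPKM in the LoVo libraries and at 50.7, 51.5 and 51.5 FPKM in the LoVo-HM libraries. The LoVo-HM libraries differed by less than 1 FPKM and the gap between the groups was far wider (log2 difference 0.61 ± 0.0446, limma's adjusted p = 1.01e-05). KIF20A, a motor of the central spindle needed for cytokinesis (ENSG00000112984, chromosome 5, 138178719 to 138187715), was at 37.0, 37.8 and 37.4 FPKM in LoVo and at 54.5, 53.8 and 53.6 FPKM in LoVo-HM. Its spread within a group was as narrow (0.52 ± 0.0414, limma's adjusted p = 1.73e-05). KIF2C, a depolymerase that corrects wrong attachments of microtubules to kinetochores, was at 44.3, 42.7 and 47.1 FPKM in LoVo and at 65.8, 59.8 and 67.0 FPKM in LoVo-HM (0.51 ± 0.0594, limma's adjusted p = 0.00017). KIF23, the motor of centralspindlin, was at 43.1, 41.0 and 43.2 FPKM in LoVo and at 57.0, 54.6 and 59.8 FPKM in LoVo-HM (0.42 ± 0.0504, limma's adjusted p = 0.000207).

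KIF11, the tetrameric Eg5 motor that pushes spindle poles apart (ENSG00000138160, chromosome 10, 92593286 to 92655395), was at 17.3, 19.7 and 20.3 FPKM in LoVo and at 24.7, 24.5 and 26.4 FPKM in LoVo-HM. Its LoVo libraries were the more spread of the groups but stayed below every LoVo-HM library (0.38 ± 0.069, limma's adjusted p = 0.0021). KIF15, which can share the pole-separating work of KIF11, was the lowest of the 12, from 8.89 ± 0.528 to 11.1 ± 0.784 FPKM (0.29 ± 0.0743, limma's adjusted p = 0.0127). The chromokinesins, which bind chromosome arms, differed in size of change. KIF4A rose from 19.0 ± 0.391 to 26.3 ± 1.30 FPKM (0.45), and KIF22 from 52.7 ± 2.94 to 63.6 ± 2.98 FPKM (0.27 ± 0.0564, limma's adjusted p = 0.0049), the smallest difference of the group. KIF4B is a near-identical copy of KIF4A on chromosome 5, so the split of reads between them is uncertain. It was at most 0.130 FPKM in any library.

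The kinesin-8 motors, which limit microtubule length at the metaphase plate, rose as well, KIF18A from 10.1 ± 0.200 to 12.7 ± 0.702 FPKM (0.30) and KIF18B from 18.2 ± 1.20 to 26.5 ± 1.43 FPKM (0.52). KIF14, which acts at the midbody, rose from 9.37 ± 0.288 to 11.6 ± 0.432 FPKM (0.29) and KIF20B from 15.5 ± 0.295 to 21.9 ± 1.11 FPKM (0.47). All 12 remained called without each library in turn. Within the group the order of levels was similar in the lines, with KIF22, KIF2C and KIF23 highest and KIF18A, KIF14 and KIF15 lowest. KIF22 and KIF2C changed places, KIF22 being higher in LoVo (52.7 against 44.7 FPKM), while in LoVo-HM they did not differ beyond their spread (63.6 ± 2.98 and 64.2 ± 3.86 FPKM).

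**Figure D2:**
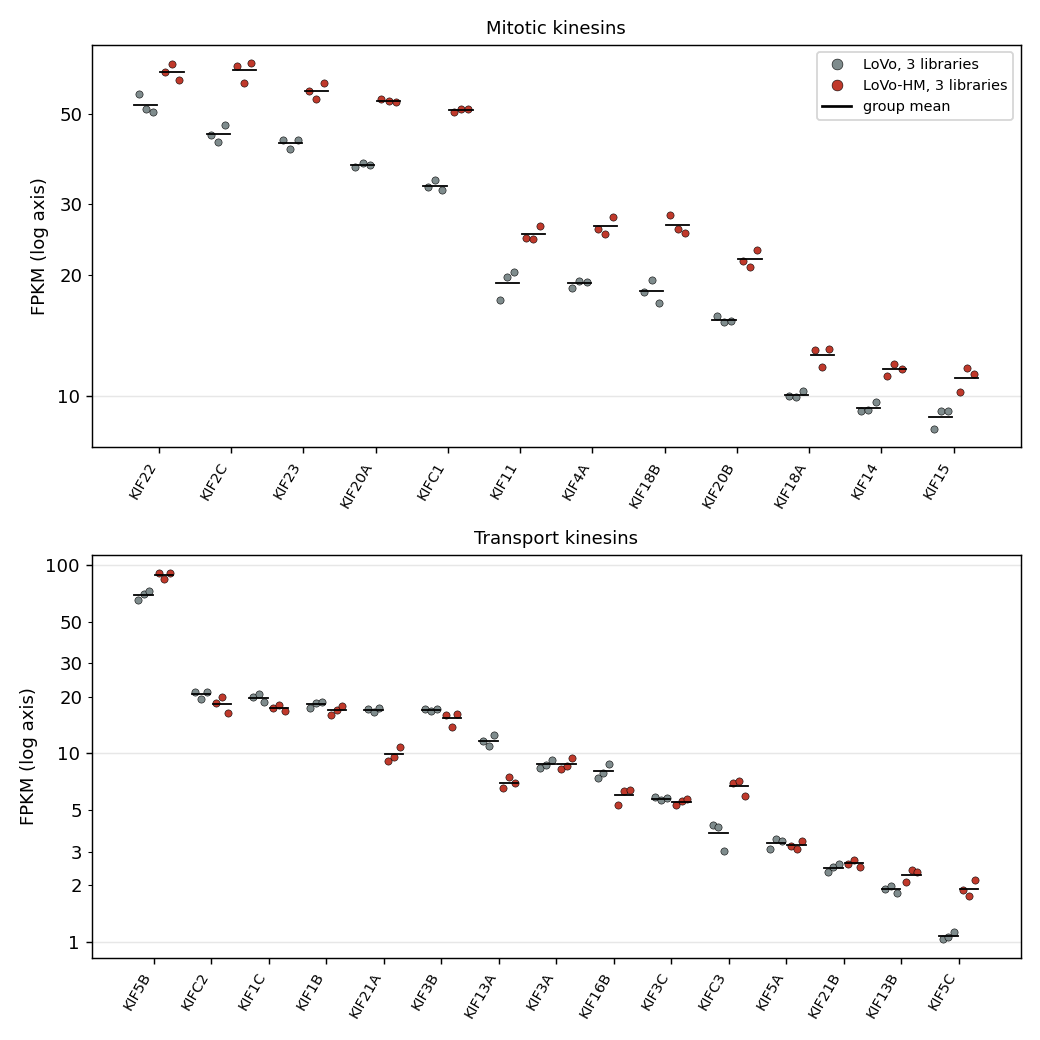
FPKM (log axis) in every library of the 12 tested mitotic kinesins in the upper panel and the 15 tested transport kinesins in the lower, with LoVo in grey, LoVo-HM in red and a line at each group mean. The red points of all 12 mitotic kinesins lie above the grey ones, whereas among transport kinesins the red points lie above for 4 (KIF5B, KIF5C, KIFC3 and KIF13B), below for 5 (KIF21A, KIF13A, KIF16B, KIF1C and KIF3B) and overlap for the other 6.

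Of 17 transport kinesins 15 were tested, of which 3 rose, 4 fell and 8 did not pass, shares (20.0% and 26.7%) near those of all tested genes. Their median log2 difference was -0.05, and with quantile normalization it turned to 0.025, beside 0.042 over all tested genes. KIF5B, the ubiquitous conventional kinesin heavy chain (ENSG00000170759, chromosome 10, 32009010 to 32056431, minus strand), was the most abundant kinesin of any kind. It stood at 65.3, 69.9 and 72.6 FPKM in LoVo and at 90.1, 83.9 and 90.3 FPKM in LoVo-HM. The groups did not overlap (0.34 ± 0.0536, limma's adjusted p = 0.000972). Its neuronal paralog KIF5C rose from 1.07 ± 0.0497 to 1.91 ± 0.189 FPKM (0.49 ± 0.0956, limma's adjusted p = 0.00327), and KIF5A was at 3.35 ± 0.213 and 3.26 ± 0.154 FPKM with no call (limma's adjusted p = 0.783). KIFC3, a minus-end motor that works at adherens junctions and the Golgi, was at 4.17, 4.08 and 3.03 FPKM in LoVo and at 6.93, 7.15 and 5.94 FPKM in LoVo-HM. In each group the library of replicate 3 was the lowest, and the groups did not overlap (0.69 ± 0.114, limma's adjusted p = 0.00131).

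The transport kinesins that fell were KIF21A, KIF13A, KIF16B and KIF1C. KIF21A, which stops microtubule growth at the cortex (ENSG00000139116, chromosome 12, 39293228 to 39443390), was at 17.3, 16.6 and 17.3 FPKM in LoVo and at 9.13, 9.62 and 10.9 FPKM in LoVo-HM. This was the largest decrease on the log2 scale among the 82 tested members (-0.74 ± 0.0709, limma's adjusted p = 5.46e-05). KIF13A, a motor of recycling endosomes (ENSG00000137177, chromosome 6, 17759183 to 17987623), was at 11.6, 10.9 and 12.6 FPKM in LoVo and at 6.54, 7.48 and 6.96 FPKM in LoVo-HM (-0.67 ± 0.0765, limma's adjusted p = 0.000158). KIF16B, which carries early endosomes, fell from 8.02 ± 0.717 to 6.02 ± 0.579 FPKM (-0.36 ± 0.0901, limma's adjusted p = 0.0108). KIF1C fell from 19.7 ± 0.907 to 17.3 ± 0.625 FPKM (-0.18 ± 0.058, limma's adjusted p = 0.0357). Its call was lost with libraries scaled to the same total (limma's adjusted p = 0.0706), with quantile normalization (0.0615), without an intensity trend (0.0547) and without LoVo replicate 1 (0.085), LoVo replicate 2 (0.123), LoVo-HM replicate 1 (0.0872) or LoVo-HM replicate 3 (0.087).

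The kinesin-2 motors of intraflagellar and vesicle transport did not pass the test. KIF3A was at 8.74 ± 0.444 FPKM in LoVo and 8.76 ± 0.581 in LoVo-HM, KIF3B at 17.0 ± 0.175 and 15.3 ± 1.30, and KIF3C at 5.76 ± 0.099 and 5.54 ± 0.222. KIF1B, a motor of mitochondria and synaptic vesicle precursors, was at 18.3 ± 0.793 and 17.0 ± 0.908 FPKM without a call, and KIFC2 was likewise at 20.6 ± 1.06 and 18.3 ± 1.82. KIF13B and KIF21B, paralogs of members that fell, were at 1.90 ± 0.078 and 2.27 ± 0.181 FPKM and at 2.48 ± 0.123 and 2.61 ± 0.119 FPKM, also without a call. KIF13B was called higher with quantile normalization (limma's adjusted p = 0.0346). In this set the LoVo and LoVo-HM libraries did not overlap for 4 tested genes that were higher and 5 that were lower, of 15, beside 27.1% and 27.9% of all tested genes.

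Set against each other within a library, the summed FPKM of the 14 mitotic kinesins was 311, 309 and 312 in the LoVo libraries and 427, 419 and 431 in the LoVo-HM libraries. The 17 transport kinesins summed to 204, 208 and 215 FPKM in LoVo and to 210.0, 208 and 214 FPKM in LoVo-HM, so that the groups overlapped. Mitotic motors held 53.7 ± 0.506% of the FPKM summed over the KIF symbols in LoVo and 60.7 ± 0.126% in LoVo-HM. That sum leaves out KIF1BP, which is no motor, and the kinesin CENPE. KIF5B alone held 33.1 ± 1.02% of the transport sum in LoVo and 41.8 ± 1.35% in LoVo-HM. Without KIF5B, the transport sum was 139.8 ± 1.92 FPKM in LoVo and lower, at 122 ± 2.26 FPKM, in LoVo-HM. The median log2 difference of the mitotic set exceeded that of the transport set by 0.48. No test was made over the sets, since their members were picked with results of these data known.

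Kinesins outside these sets included the member with the largest increase. KIF26B, an atypical kinesin linked to Wnt5a-Ror signalling and to cell adhesion in the developing kidney (ENSG00000162849, chromosome 1, 245154985 to 245709431, plus strand), was at 0.778, 0.780 and 0.871 FPKM in LoVo and at 8.64, 8.47 and 7.56 FPKM in LoVo-HM. The ratio of the means was 10.2 (log2 difference 2.35 ± 0.0847, limma's adjusted p = 1.02e-07). Its paralog KIF26A went the other way, at 10.8, 9.80 and 9.84 FPKM in LoVo and at 8.30, 8.73 and 8.05 FPKM in LoVo-HM (-0.25 ± 0.0671, limma's adjusted p = 0.0153). The call of KIF26A was lost without LoVo replicate 1 (limma's adjusted p = 0.0559). KIF26A was thus the more abundant paralog in LoVo, whereas in LoVo-HM their means (8.36 ± 0.348 and 8.22 ± 0.581 FPKM) differed by less than the spread between libraries.

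KIF24, a centriolar kinesin that restrains cilium formation, rose from 3.51 ± 0.132 to 5.08 ± 0.0987 FPKM (0.43 ± 0.0717, limma's adjusted p = 0.00136). KIF2A, a depolymerase used in spindles and in neurites, was at 30.9 ± 1.75 FPKM in LoVo and 28.5 ± 0.74 in LoVo-HM without a call (limma's adjusted p = 0.137). The Hedgehog regulator KIF7 was at 6.52 ± 0.267 and 7.29 ± 0.925 FPKM, KIF9 at 5.26 ± 0.943 and 5.22 ± 1.31, KIF27 at 1.34 ± 0.0836 and 1.59 ± 0.341, and KIF12 at 0.635 ± 0.107 and 0.575 ± 0.103, all without a call. KIF1BP is a kinesin-binding protein and no motor, which the choice by symbol brought in. It was at 15.4, 16.5 and 15.1 FPKM in LoVo and at 12.5, 13.8 and 14.5 FPKM in LoVo-HM and narrowly missed the threshold (-0.19 ± 0.0695, limma's adjusted p = 0.0504). It passed without LoVo-HM replicate 3 (limma's adjusted p = 0.0331), with a minimum mean of 2 FPKM (0.0469) and with robust estimates (0.0496).

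Of the 23 listed mitotic regulators 22 rose and 1 did not pass, beside 21.8% called higher over all tested genes. For the same 22 the libraries of the groups did not overlap, with LoVo-HM higher, beside 27.1% of all tested genes. The cyclins and kinases that drive entry into mitosis all rose. CCNB1, cyclin B1 (ENSG00000134057, chromosome 5, 69167010 to 69178245), was at 122, 118 and 111 FPKM in LoVo and at 145, 144 and 148 FPKM in LoVo-HM (0.31 ± 0.0448, limma's adjusted p = 0.000598). Its partner CDK1, the kinase of mitotic entry, was at 74.6, 80.5 and 78.5 FPKM in LoVo and at 92.5, 85.3 and 96.2 FPKM in LoVo-HM, with the groups close but apart (0.23 ± 0.0554, limma's adjusted p = 0.0101). CCNA2 rose by 0.24 and CCNB2 by 0.35 on the log2 scale. Among the mitotic kinases, AURKB, the kinase of the chromosomal passenger complex, was at 57.0, 55.6 and 55.1 FPKM in LoVo and at 80.0, 76.2 and 72.4 FPKM in LoVo-HM (0.44 ± 0.0487, limma's adjusted p = 0.000129). The spindle pole kinase AURKA and PLK1, which acts at centrosomes and kinetochores, changed less (0.23 and 0.25). FOXM1, a transcription factor of the late cell cycle genes, was at 49.0, 49.96 and 52.8 FPKM in LoVo and at 67.6, 69.0 and 68.9 FPKM in LoVo-HM (0.43 ± 0.0452, limma's adjusted p = 9.27e-05).

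CDKN3, a phosphatase that acts on cyclin-dependent kinases (ENSG00000100526, chromosome 14, 54396849 to 54420218), had the largest difference of the regulators. It was at 104, 107 and 97.0 FPKM in LoVo and at 194, 186 and 198 FPKM in LoVo-HM, a ratio of means of 1.88 (0.90 ± 0.0482, limma's adjusted p = 1.27e-06). No other listed regulator exceeded a log2 difference of 0.54. Genes of mitotic exit were less uniform. UBE2C, the ubiquitin-conjugating enzyme of the anaphase-promoting complex, was at 59.2, 62.4 and 60.6 FPKM in LoVo and at 88.8, 95.8 and 81.8 FPKM in LoVo-HM (0.54 ± 0.0603, limma's adjusted p = 0.000137). CDC20, the activator of that complex, rose from 106 ± 0.35 to 135 ± 6.06 FPKM (0.34). PTTG1, the securin that holds separase inactive until anaphase, was at 72.7, 78.4 and 73.7 FPKM in LoVo and at 78.1, 78.3 and 75.4 FPKM in LoVo-HM, with overlapping groups (0.04 ± 0.0455, limma's adjusted p = 0.463).

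**Figure D3:**
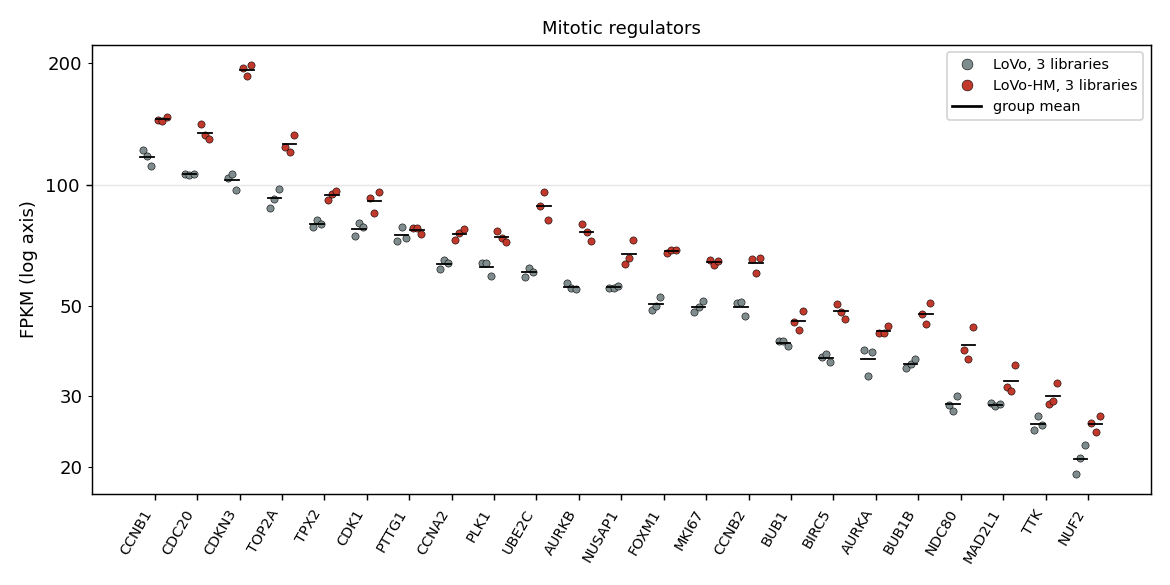
FPKM (log axis) of the 23 listed mitotic regulators in every library, ordered by their LoVo mean, with LoVo in grey, LoVo-HM in red and a line at each group mean. The groups are apart for every gene except PTTG1, and the widest gap is that of CDKN3.

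The spindle checkpoint and outer kinetochore regulators rose by small amounts. BUB1B, the checkpoint protein BubR1, rose from 36.0 ± 0.934 to 48.0 ± 2.90 FPKM (0.40 ± 0.0554, limma's adjusted p = 0.000463). NDC80, which grips the microtubule end, rose from 28.6 ± 1.26 to 40.1 ± 3.79 FPKM (0.47), and its partner NUF2 from 21.0 ± 1.74 to 25.6 ± 1.17 (0.28). BUB1, TTK and MAD2L1 had differences of 0.17, 0.22 and 0.19 (limma's adjusted p = 0.0236, 0.0189 and 0.04), and leaving out a library ended these calls. For BUB1 the adjusted p was 0.0516, 0.0555 and 0.0725 without LoVo replicates 1, 2 and 3, and 0.0601 and 0.0569 without LoVo-HM replicates 1 and 3. For MAD2L1 it was 0.0798, 0.104 and 0.0841 without LoVo replicates 1, 2 and 3, and 0.0579 and 0.0803 without LoVo-HM replicates 1 and 3. For TTK it was 0.0633 and 0.0526 without LoVo replicates 1 and 3. Without an intensity trend BUB1 and MAD2L1 were not called either (limma's adjusted p = 0.0563 and 0.0723), and without a filter MAD2L1 was not (0.0614).

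Spindle and chromosome proteins among the regulators rose in 5 of 5. TOP2A, the topoisomerase that untangles sister chromatids (ENSG00000131747, chromosome 17, 40388516 to 40417950), was at 87.6, 92.4 and 97.6 FPKM in LoVo and at 124, 121 and 133 FPKM in LoVo-HM (0.44 ± 0.0547, limma's adjusted p = 0.000254). MKI67, which coats mitotic chromosomes and is the common proliferation marker, was at 48.4, 49.7 and 51.5 FPKM in LoVo and at 65.2, 63.3 and 64.8 FPKM in LoVo-HM (0.36 ± 0.0438, limma's adjusted p = 0.000215). BIRC5, the survivin subunit of the passenger complex, rose from 37.3 ± 0.923 to 48.6 ± 2.07 FPKM (0.37). TPX2, which activates AURKA on the spindle, rose from 80.2 ± 1.58 to 94.4 ± 2.62 FPKM (0.23), and the microtubule-binding NUSAP1 from 55.7 ± 0.324 to 67.6 ± 4.98 (0.27). For 15 of the 23 regulators the highest of the 6 libraries was LoVo-HM replicate 3, and the summed level of the regulators was 1760, 1724 and 1784 FPKM in the LoVo-HM libraries and 1346, 1369 and 1350 FPKM in the LoVo libraries.

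Centromere proteins grouped here as the CENP network rose in 9 of 17 (52.9%) by limma, beside 21.8% of all tested genes. The other 8 did not pass. The group holds CENPA and CENPB beside the constitutive network, which sits on the centromere through the cell cycle. CENPR is not among the 17, since its symbol ITGB3BP falls outside the choice by symbol. Lower values passed for 0 of the 17, also at an unadjusted p under 0.05. CENPA, the histone H3 variant that marks the centromere (ENSG00000115163, chromosome 2, 26764289 to 26801067), was at 10.7, 12.6 and 13.99 FPKM in LoVo and at 19.0, 15.4 and 16.8 FPKM in LoVo-HM (0.43 ± 0.104, limma's adjusted p = 0.00977). The groups were apart, although the libraries of each were spread. CENPB, which binds the alpha-satellite DNA itself, was at 38.5, 33.4 and 34.4 FPKM in LoVo and at 40.9, 39.8 and 35.8 FPKM in LoVo-HM, with overlap (0.13 ± 0.0716, limma's adjusted p = 0.175). CENPC, the platform that links the CENPA nucleosome to the kinetochore, was at 5.04, 4.63 and 5.58 FPKM in LoVo and at 4.03, 4.59 and 4.73 FPKM in LoVo-HM (-0.16 ± 0.0898, limma's adjusted p = 0.188).

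Subunits of the same complex were not alike in size of change. Of the CENPH, CENPI, CENPK and CENPM group, CENPM was at 16.3, 18.2 and 13.8 FPKM in LoVo and at 26.1, 28.3 and 26.8 FPKM in LoVo-HM, the largest difference of the network (0.72 ± 0.0917, limma's adjusted p = 0.000299). CENPI was at 6.92, 7.23 and 9.03 FPKM in LoVo and at 10.4, 10.3 and 13.3 FPKM in LoVo-HM, with replicate 3 the highest in each group (0.50 ± 0.119, limma's adjusted p = 0.00927). CENPH (12.7 ± 0.717 and 13.0 ± 0.714 FPKM) and CENPK (20.7 ± 1.33 and 21.9 ± 1.57 FPKM) did not pass. Of the CENPO, CENPP, CENPQ and CENPU group, CENPU was at 16.1, 18.8 and 20.9 FPKM in LoVo and at 32.4, 30.1 and 28.8 FPKM in LoVo-HM (0.69 ± 0.0914, limma's adjusted p = 0.000378). CENPO rose by less (0.26 ± 0.0633), while CENPP (3.93 ± 0.325 and 4.06 ± 0.466 FPKM) and CENPQ (7.65 ± 1.06 and 7.67 ± 0.367 FPKM) did not pass.

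CENPN, which reads the CENPA nucleosome together with CENPL, was at 15.0, 21.4 and 17.2 FPKM in LoVo and at 26.9, 24.3 and 26.7 FPKM in LoVo-HM (0.53 ± 0.113, limma's adjusted p = 0.00529). CENPL rose from 6.48 ± 0.673 to 8.11 ± 0.379 FPKM (0.29, limma's adjusted p = 0.0205). In the histone-fold group, CENPT rose from 15.6 ± 0.358 to 19.7 ± 2.80 FPKM (0.31, limma's adjusted p = 0.0263) and CENPX from 61.1 ± 1.85 to 73.2 ± 7.68 (0.25, limma's adjusted p = 0.0214). CENPW (39.2 ± 7.20 and 37.1 ± 4.20 FPKM) and CENPS (23.9 ± 2.24 and 25.0 ± 1.27 FPKM) did not pass. Reads of CENPS can also belong to the readthrough CENPS-CORT (3.07 ± 0.373 and 2.38 ± 0.732 FPKM, no call, called lower without LoVo-HM replicate 1 at an adjusted p by limma of 0.0434), so the values of these 2 are uncertain. The calls of CENPL, CENPT and CENPX depended on single libraries. For CENPL the adjusted p was 0.0691 and 0.0664 without LoVo replicates 1 and 2, and 0.0611 and 0.0556 without LoVo-HM replicates 2 and 3. For CENPT it was 0.0615, 0.0552 and 0.0711 without LoVo replicates 1, 2 and 3, and 0.0833 and 0.075 without LoVo-HM replicates 1 and 3. For CENPX it was 0.0729 without LoVo replicate 2, and 0.0579 and 0.0514 without LoVo-HM replicates 1 and 2. CENPT and CENPX were also not called without a filter (limma's adjusted p = 0.061 and 0.0511).

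**Figure D4:**
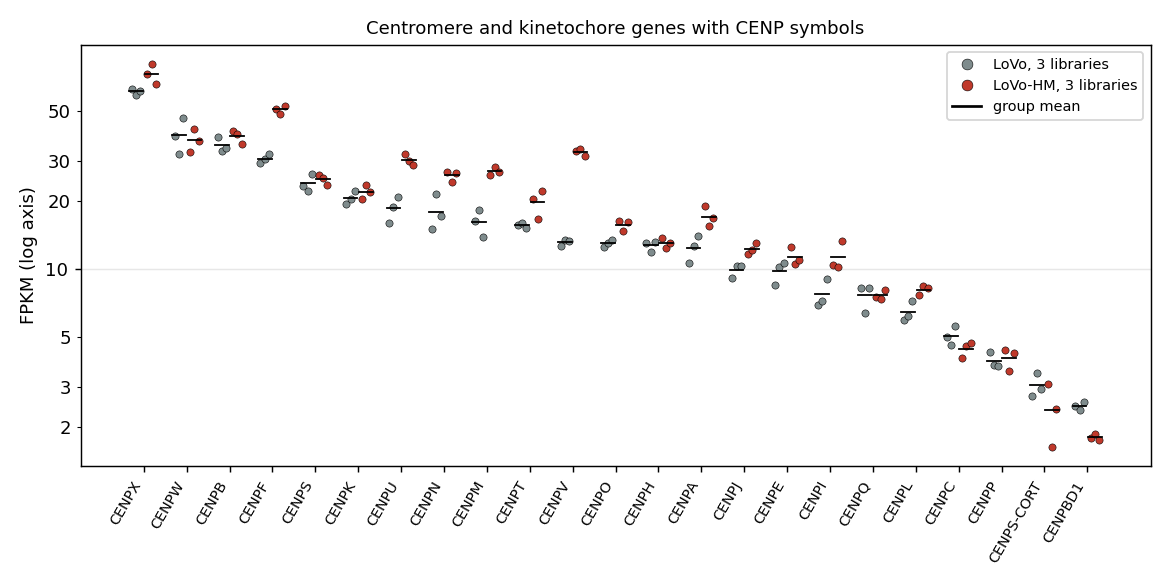
FPKM (log axis) of the 23 tested genes with CENP symbols in every library, ordered by their LoVo mean, with LoVo in grey, LoVo-HM in red and a line at each group mean. CENPF, CENPU, CENPM and CENPV show the wide gaps. CENPW, CENPS, CENPK, CENPH, CENPQ, CENPB, CENPC, CENPP, CENPE and CENPS-CORT overlap between the lines.

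CENP symbols outside the network have separate roles and moved separately. CENPF, a large protein of the kinetochore corona (ENSG00000117724, chromosome 1, 214603195 to 214664588), was at 29.4, 30.6 and 32.2 FPKM in LoVo and at 51.0, 48.8 and 52.9 FPKM in LoVo-HM, a log2 difference of 0.71 ± 0.054 (limma's adjusted p = 1.26e-05). CENPE, the kinesin-7 motor that carries chromosomes to the metaphase plate, was at 8.47, 10.3 and 10.7 FPKM in LoVo and at 12.6, 10.5 and 10.97 FPKM in LoVo-HM, with overlap (0.20 ± 0.0979, limma's adjusted p = 0.137). CENPV, a protein of centromeric heterochromatin and cytokinesis (ENSG00000166582, chromosome 17, 16342534 to 16353656), was at 12.6, 13.4 and 13.4 FPKM in LoVo and at 33.3, 34.1 and 31.8 FPKM in LoVo-HM. That was a ratio of means of 2.51 and the second largest difference of all members (1.27 ± 0.0542, limma's adjusted p = 3.09e-07). CENPJ, a centriole assembly protein, rose from 9.95 ± 0.738 to 12.3 ± 0.714 FPKM (0.28 ± 0.0739, limma's adjusted p = 0.0141). CENPBD1 fell from 2.48 ± 0.101 to 1.80 ± 0.0554 FPKM (-0.31 ± 0.0834, limma's adjusted p = 0.0155). Its call was lost without LoVo replicate 3 (limma's adjusted p = 0.0512) and with quantile normalization (0.0554).

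The rest of the mitotic machinery was read from 11 further lists of genes that are not members, with another 2 for the partners of transport motors. Their counts stand beside 21.8% higher and 23.1% lower over all tested genes. Condensin, which compacts chromosomes, rose in 7 of 8 genes, with SMC4 from 68.0 ± 3.10 to 94.0 ± 5.19 FPKM and NCAPD2 from 86.5 ± 1.73 to 112 ± 0.825 FPKM. Outer kinetochore genes rose in 7 of 11, including SKA2 (from 22.2 ± 1.28 to 38.8 ± 1.16 FPKM) and SPC24, a partner of NDC80 and NUF2 (from 9.06 ± 0.531 to 15.7 ± 0.629 FPKM). Cohesin and separase genes rose in 7 of 11, among them NIPBL and CDCA5 (0.36 and 0.37). CENPA loading genes rose in 3 of 4, with its chaperone HJURP from 26.5 ± 2.08 to 37.1 ± 1.76 FPKM, beside MIS18A (0.22). The passenger and shugoshin genes rose in 3 of 5, among them CDCA8 and SGO1 (0.46 and 0.45).

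Other lists were mixed, beside 21.8% higher and 23.1% lower over all tested genes. Centrosome and spindle assembly genes rose in 8 of 14 and fell in 2, with STIL higher (0.58 ± 0.0623) and NEDD1 lower (-0.53 ± 0.0773). Mitotic entry genes rose in 6 of 11 and fell in 1, with CKS1B higher (0.22) and ARPP19 lower (-0.23 ± 0.05). The list of the anaphase-promoting complex and its regulators rose in 7 of 17 and fell in 1. Its inhibitor FBXO5 rose by 0.56 and the subunit CDC16 by 0.27. The midzone and cytokinesis list rose in 3 of 7 genes and fell in 1. SPAG5, placed in this list although it is a spindle protein, was higher (0.32). The abscission protein CEP55 was lower, from 62.2 ± 4.44 to 46.8 ± 2.44 FPKM. Spindle checkpoint genes rose in 2 of 7 (28.6%), near the share of all tested genes. These were TRIP13 (0.35 ± 0.0401) and KNTC1 (0.18 ± 0.0567, limma's adjusted p = 0.0336). KNTC1 was not called without any 1 of the 6 libraries (limma's adjusted p from 0.0518 to 0.0953). Of the DREAM, MuvB and E2F regulators 8 of 20 rose and 3 fell, and E2F8, a repressor of the E2F family, rose from 5.26 ± 0.45 to 11.7 ± 0.466 FPKM (1.02), ahead of E2F1 (0.62).

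Partners of transport kinesins rose in 3 of 16 and fell in 5 (18.75% and 31.25%), beside 21.8% and 23.1% of all tested genes. KLC3, a kinesin light chain, fell from 9.97 ± 0.554 to 3.99 ± 0.138 FPKM (-1.13 ± 0.0705), and TRAK1, an adaptor to mitochondria, fell by 0.44 on the log2 scale. Cytoplasmic dynein and dynactin genes rose in 3 of 17 and fell in 2 (17.6% and 11.8%). Among them the light chain DYNLL2 was higher, from 17.1 ± 0.14 to 31.7 ± 0.399 FPKM, and DCTN1 lower (-0.26). Over all 13 lists, those of transport included, 67 of 148 genes rose and 15 fell. These were 45.3% and 10.1%, beside 21.8% and 23.1% of all tested genes.

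**Figure D5:**
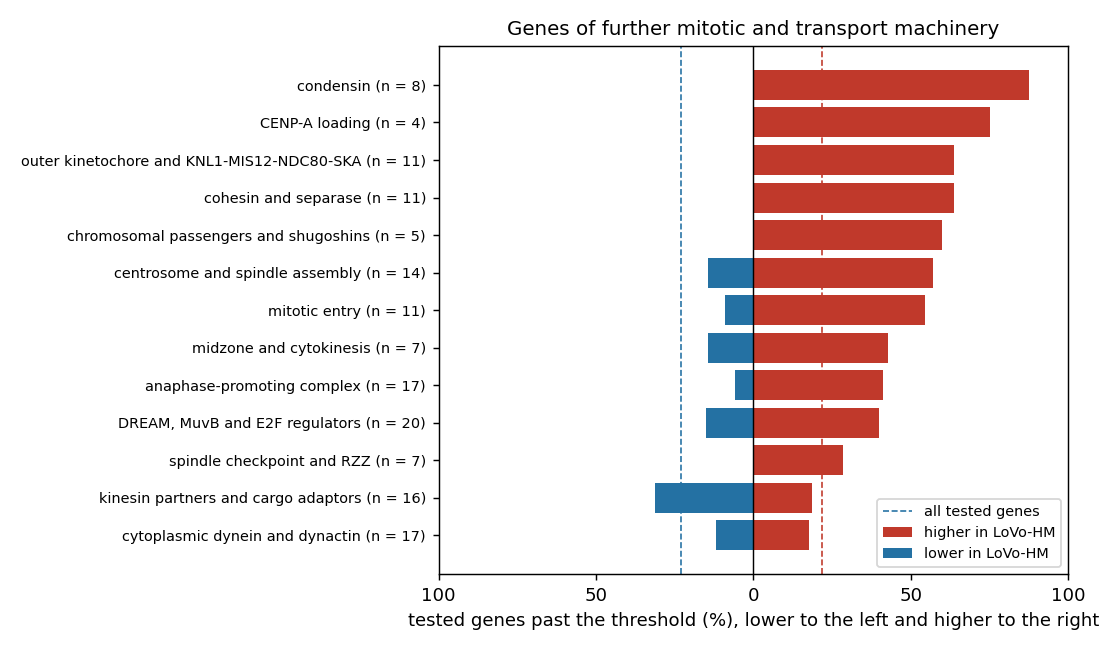
Share of the tested genes of each further list (percent) that passed the threshold, higher in LoVo-HM to the right in red and lower to the left in blue, with dashed lines at the shares over all tested genes (21.8% and 23.1%). Condensin has the longest red bar (7 of 8), and the partners of transport kinesins have the longest blue bar (5 of 16).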

How the data were processed

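RNA from 3 LoVo and 3 LoVo-HM libraries was extracted with Trizol and prepared with an Illumina TruSeq kit, per the labels' protocols. The measurements are 1 whole-series table of FPKM made by the authors; the submitters' processing notes name the build GRCh38. The aligner, the quantifier, the annotation, the strand setting and the depth are not stated in the labels or the file header. Among low values (below 0.3 FPKM, 2142 genes), ratios between libraries showed no steps of whole reads: the commonest bin of 0.05 log2 units held at most 3.67%. No counting intervals are therefore given.

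Values were used as deposited, as log2(FPKM + 1), for the 14487 of 24580 rows with a mean of at least 0.5 FPKM. The lines were compared with limma 3.58.1 (R 4.3.3), LoVo-HM minus LoVo, with an intensity trend and two-sided moderated tests, adjusted by Benjamini-Hochberg over all tested rows. The fit was tested on simulated data. Positions are from GENCODE 29 (GRCh38), which held all 92 members, and promoter sequences are from RefSeq (GRCh38.p14), matched by Ensembl identifier or symbol. The members, lists and tests were chosen with earlier results of these data known, so lists are described by counts and medians without a test. Values are printed for most members. Full statistics go to those that the rule sets: up to 4 members per role with the smallest p, the largest rise and fall of each role and 10 fixed genes. Of each further list 2 genes are named, most of them without a p-value. Statistics of other members were added after their values were seen. Of the listed symbols, 2 (KIFBP and JIP3) are not symbols of the table, and KIFBP is the member KIF1BP. Alternatives were pseudocounts of 0.1 and 0.5, no filter, a minimum mean of 2 FPKM, 3 other scalings, 2 other variance fits, a block for the replicate number, and each library left out in turn.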

Additional observations from a re-analysis of the deposited data

How the results depend on the processing

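Over 16 alternatives all 12 tested mitotic kinesins were called higher, and every member that changed sign under an alternative was uncalled there. The count of members called higher was 48 to 52 under the 10 alternatives that keep all libraries and 46 to 49 when 1 library was left out, beside 51. Members called lower were 4 to 7, and 4 to 6 with 1 library left out, beside 6. Over all genes the calls were 6508 (3161 higher), 6615 with quantile normalization (3651 higher, 55.2% of calls against 48.6%) and 6639 with the same total (3573 higher). The median log2 difference of the regulators moved from 0.31 to 0.35 with the same total. Over all tested genes that setting moved the median from 0.003 to 0.029. With quantile normalization the median of the transport kinesins turned to 0.025, beside 0.042 over all tested genes. The mitotic minus transport difference of medians was 0.42 with quantile normalization, 0.45 with no filter, and 0.47 to 0.52 with 1 library left out, beside 0.48. The CENP network's median was 0.18 to 0.26 with 1 library left out, its lowest without LoVo-HM replicate 2, and 6 to 8 of its genes were then called. Other kinesins called lower numbered 2 with a minimum mean of 2 FPKM or robust estimates, and 0 to 2 with 1 library left out. Their median was 0.057 with no filter, 0.059 with quantile normalization and -0.0333 to 0.091 with 1 library left out, beside -0.02. In all these cases the cause was not tested. Deviations of same-numbered libraries of the lines had r of -0.007 to 0.0264 across genes. For differently numbered libraries r was -0.0752 to 0.0548. With 3 libraries per group this cannot show whether the numbers pair the libraries, which is unknown. With the replicate block 51 members were called higher, 6 lower and 6459 genes in all. Depth is unknown, so its limits on low members could not be given.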
